A study of Mus musculus with 1824 samples.

Results

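Lane plates 2 and 3 are 2 of the 6 E7.5 (embryonic day 7.5) plates whose titles give a sequencing lane. All wells of both plates with at least 100000 total reads were taken, which gave 89 of 96 cells on lane plate 2 and 84 of 96 on lane plate 3. These 173 cells are part of 1649 cells of that depth and 1824 wells in the series. RNA of single cells had been amplified by Smart-seq2, which reads whole transcripts and adds no molecular barcode. Plate 2 was run on lane 2 and plate 3 on lane 3. The labels of both plates name E7.5 embryo as tissue and CD1 as strain, and give no genotype, sort gate or animal for a well. In the study, chimaeras were made by injecting *Tet* triple-knockout embryonic stem cells, which lack *Tet1*, *Tet2* and *Tet3*, into wild-type C57BL/6J blastocysts carried by CD1 recipients. The injected cells came from 1 line that carries a CAG-driven H2B-tdTomato label, and the cells around them are host cells. The methods describe staining for KDR (CD309) and CD41 before sorting, so a gate on surface KDR can set the share of *Kdr*-positive cells reported here. The study also sorted chimaera cells by tdTomato, with labelled knockout cells collected apart from unlabelled host cells. Which of these a well of either plate held is not given in the labels. Each plate was therefore 1 sample, no test between plates was possible, and plate, lane, gate, embryo and genotype cannot be told apart.

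The earliest blood vessels and blood of the mouse form from mesoderm that leaves the primitive streak and moves into the extraembryonic region. KDR, the receptor for VEGF-A, marks this mesoderm and stays on in endothelium. The ETS factor ETV2 is needed to turn such mesoderm into endothelial and blood cells. HAND1, a basic helix-loop-helix factor, and TBX20, a T-box factor, are found in extraembryonic mesoderm, the tissue of the yolk sac wall, amnion and allantois. The comparison asks which of these populations each plate held and which genes differed between them.

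To show which letters stand upstream of the genes described below, promoter windows from RefSeq (GRCm38.p6) were searched for 4 motifs on both strands in the 250 bases before the start. The motifs were CCGGAA and AACAGGAA for ETS factors, CATCTG for E-box factors and GATAA for GATA factors. Of 22 haematoendothelial genes 13 had at least 1 window, and of 22 extraembryonic mesoderm genes 18 did. A gene was counted where any of its windows held the motif. AACAGGAA was found for 2 of the 13 haematoendothelial genes (15.4%) and 0 of the 18 extraembryonic mesoderm genes, against 2.50% of all 27025 genes with a window. CATCTG was found for 4 (30.8%) and 1 (5.56%), against 16.3%. CCGGAA was found for 1 (7.69%) and 3 (16.7%), against 13.6%, and GATAA for 3 (23.1%) and 3 (16.7%), against 25.5%. A match is only a match of letters. The windows of *Kdr* and of *Emcn*, the haematoendothelial gene with the lowest ratio of plate 3 to plate 2, and of *Bmp4*, which was higher there, are printed from 250 to 51 bases before the start, with matches in capitals.
*Kdr*, minus strand, chr5:75978506-75978705: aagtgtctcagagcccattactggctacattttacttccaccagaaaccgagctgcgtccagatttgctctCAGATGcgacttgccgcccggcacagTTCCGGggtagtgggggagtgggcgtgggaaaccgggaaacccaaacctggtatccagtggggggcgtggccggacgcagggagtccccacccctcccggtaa
*Emcn*, plus strand, chr3:137340828-137341027: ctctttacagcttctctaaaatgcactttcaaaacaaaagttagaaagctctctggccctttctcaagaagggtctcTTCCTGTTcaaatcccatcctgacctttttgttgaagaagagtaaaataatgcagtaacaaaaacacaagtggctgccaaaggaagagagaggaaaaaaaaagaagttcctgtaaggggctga
*Bmp4*, minus strand, chr14:46390720-46390919: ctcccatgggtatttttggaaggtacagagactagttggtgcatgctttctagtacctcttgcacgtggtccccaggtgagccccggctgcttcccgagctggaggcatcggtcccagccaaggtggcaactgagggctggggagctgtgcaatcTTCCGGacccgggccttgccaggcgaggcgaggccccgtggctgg

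Plate 3 was the deeper plate. Total reads per cell had a median of 639949 (100941 to 1538621) on plate 2 and 1699478.5 (475869 to 6162793) on plate 3. Values are therefore given as CPM, counts per 1000000 reads of the cell or of the pooled plate. After each cell was thinned to 100000 reads, the median number of genes detected was 6422 on plate 2 and 6645 on plate 3 (7561 and 8614 before thinning). Mitochondrial genes took a median of 1.47% and 2.41% of reads. In 1 row of plate 2 the median was 124278 reads. The highest well left out held 74846 reads on plate 2 and 21407 on plate 3, and the lowest cell kept is the lower end of each range above. The plates shared 0 of 96 index pairs, and 0 cells had values identical to those of another. Intervals below are exact 95% intervals for counting error alone. Several reads can come from 1 amplified molecule, so the range over the 8 rows of a plate is given as the spread within it.

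Pooled over cells, *Kdr* and *Etv2* were lower and *Hand1* and *Tbx20* higher on plate 3, while the order of the plates in the share of *Etv2*-positive cells depended on the level taken as positive. *Kdr* (chromosome 5, 75932827 to 75978458, minus strand) was at 1276 pooled CPM (1266 to 1285) on plate 2 and 601 CPM (597 to 604) on plate 3. Over plate rows it ran from 1041 to 1768 CPM (median 1292) on plate 2 and from 291 to 950 CPM (median 580) on plate 3, so the rows did not overlap. The log2 ratio, plate 3 over plate 2 with 1 CPM added to both, was -1.09. At 20 CPM or more, the level taken as positive, *Kdr* was present in 89 of 89 cells on plate 2 (100%, interval from 95.9%) and in 78 of 84 on plate 3 (92.9%, 85.1 to 97.3%). Both plates were thus made up mostly of *Kdr*-positive cells, and the difference lay mainly in the level per cell, with medians of 1090 CPM (85.7 to 3580) and 512 CPM (0 to 2027).

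*Etv2* (chromosome 7, 30633616 to 30635852, minus strand) was at 149.6 CPM (146 to 153) on plate 2 and 32.1 CPM (31.2 to 32.9) on plate 3, a log2 ratio of -2.19. Positive cells numbered 42 of 89 cells (47.2%, 36.5 to 58.1%) and 33 of 84 (39.3%, 28.8 to 50.5%), and the intervals of the shares overlapped. At a positive level of 5 CPM the order turned, with 52.8% on plate 2 and 59.5% on plate 3, and at 50 CPM the shares were 39.3% and 21.4%. Per cell it had a median of 15.9 CPM (0 to 1690) on plate 2 and of 10.7 CPM (0 to 356) on plate 3, so the highest cells differed more than the middle ones. Rows overlapped, from 31.3 to 341 CPM on plate 2 and from 9.61 to 82.8 CPM on plate 3. Of the cells positive at 20 CPM, 14 on plate 2 and 23 on plate 3 were also positive for *Hand1* or *Tbx20*.

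*Hand1* (chromosome 11, 57828705 to 57832818, minus strand) was at 8.59 CPM (7.84 to 9.40) on plate 2 and 74.5 CPM (73.2 to 75.8) on plate 3, a log2 ratio of 2.98. It was positive in 13 of 89 cells (14.6%, 8.01 to 23.7%) and in 37 of 84 cells (44.05%, 33.2 to 55.3%). Its highest cell was at 116 CPM on plate 2 and at 631 CPM on plate 3. Every row of plate 3, from 31.9 to 148 CPM, stood above every row of plate 2, from 0 to 20.7 CPM. *Tbx20* (chromosome 9, 24718138 to 24774303, minus strand) was at 35.9 CPM (34.3 to 37.5) and 104.6 CPM (103 to 106), a log2 ratio of 1.52, and was positive in 14 of 89 cells (15.7%, 8.88 to 24.98%) and in 45 of 84 cells (53.6%, 42.4 to 64.5%). Per cell *Tbx20* had a median of 0 CPM (highest 881) on plate 2 and 28.6 CPM (highest 803) on plate 3. Its rows overlapped, from 0 to 147 CPM on plate 2 and from 36.8 to 196 CPM on plate 3. Row C of plate 2 carried much of that plate's *Tbx20*, and it held the plate's highest cell, at 881 CPM in 1192309 reads. The log2 ratio without this row was 2.70. *Hand1* or *Tbx20* was found together with *Kdr* in 21 of 89 cells on plate 2 (23.6%) and in 51 of 84 on plate 3 (60.7%).

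**Figure D1:**
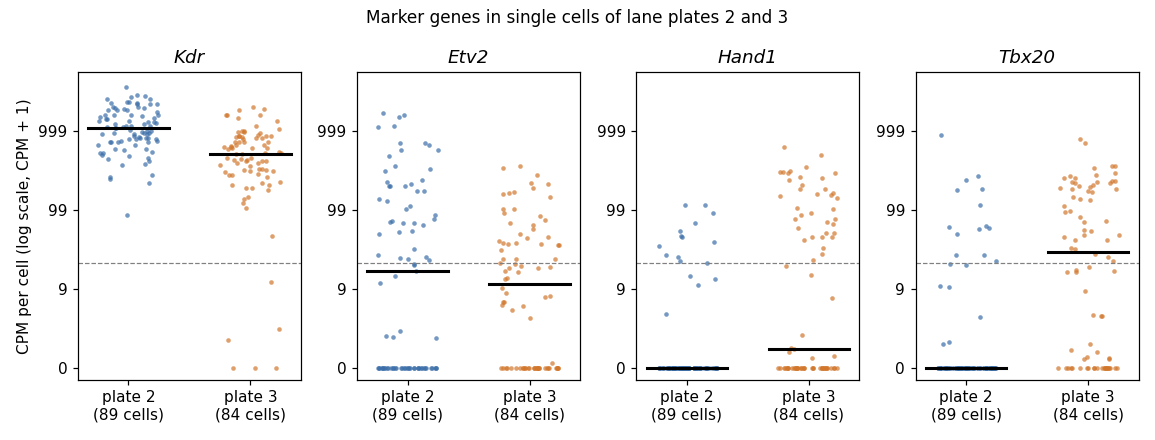
CPM per cell on a log scale for *Kdr*, *Etv2*, *Hand1* and *Tbx20*. Each point is 1 of 89 cells of lane plate 2 or 84 cells of lane plate 3, bars are medians, and the dashed line is the positive level of 20 CPM. *Kdr* points shift down on plate 3 (medians 1090 and 512 CPM), while *Hand1* is positive in 14.6% of cells on plate 2 and 44.05% on plate 3.

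Haematoendothelial genes were lower on plate 3 across nearly the whole list. All 22 members reached 10 pooled CPM on a plate. Of these, 20 were lower on plate 3 past 2-fold (a log2 ratio of -1 or below) and 0 were higher, with a median log2 ratio of -2.31. Over all 9759 genes at 10 CPM or more on either plate, 16.3% were lower and 11% higher past 2-fold, with a median of -0.16. Members with no overlap between rows and past 2-fold numbered 14, all lower, against a background of 3.07% of genes lower in that way. The lists, here and below, were chosen with earlier results of these data known. Their shares beside those of all genes are therefore a description only. In pooled values such as these, fewer endothelial cells and less RNA per cell cannot be told apart.

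The lowest ratios were in genes of the vessel surface. *Emcn*, the endothelial sialomucin endomucin, was at 262.8 CPM on plate 2 and 15.1 CPM on plate 3, a log2 ratio of -4.03. *Plvap*, which forms the diaphragms of endothelial pores, was at 959 and 72.4 CPM, a ratio of -3.71. It was positive in 83.1% of cells on plate 2 and 17.9% on plate 3, and its rows lay apart, at 568 to 1221 CPM and 1.55 to 240.5 CPM. Genes of endothelial junctions were also lower. *Cdh5* (VE-cadherin) was at 364 and 61.8 CPM, *Pecam1* at 221 and 37.8 CPM, *Esam* at 714 and 131 CPM and *Cldn5* at 597 and 129.7 CPM, with ratios from -2.54 to -2.19. *Cdh5* and *Plvap* each overlap a gene on the opposite strand, from which reads cannot be told apart because the strand setting of the counting is not given in the sources used here. The same holds for *Eng*, *Fli1*, *Lmo2*, *Col4a1*, *Krt8*, *Bmp4*, *Tbx3*, *Foxf1*, *Tagln*, *Hoxa11*, *Eomes*, *Pou5f1*, *Notch1*, *Notch4*, *Dll4*, *Bmp5*, *Bmpr1a*, *Fgf10*, *Fgfr2*, *Fgfr3*, *Tet2*, *Tet3*, *Pid1*, *Fmr1nb*, *Npr3*, *Stab1*, *Rpl15-ps2*, *Runx1*, *Coro1a*, *Sox17*, *Apoa4*, *Afp*, *Trap1a*, *Jun*, *Junb*, *Atf3*, *Prox1* and *Xist*, described below.

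Receptors other than *Kdr* were lower as well. *Tek* and *Tie1*, the receptors of the angiopoietin system, had ratios of -2.17 and -2.48, *Flt1*, the VEGF receptor 1, -2.44, and *Eng*, a co-receptor of BMP9, -2.49. Among transcription factors the ratios were graded. *Sox18* had a ratio of -2.42, *Gata2* -1.69, *Sox7* -1.62, *Fli1* -1.55 and *Erg* -1.12. *Tal1* and *Lmo2*, partners in the factor complex that sets up blood and endothelium, stayed within 2-fold at -0.87 (105 and 56.7 CPM) and -0.23 (81.2 and 69.3 CPM). *Tal1* passed 2-fold when each cell was thinned (-1.26), when cells were weighted equally (-1.18) and without row G of plate 3 (-1.36). Scaling of the plates mattered at the edge of the threshold. With edgeR TMM factors all ratios moved up by about the shift of the median gene, from -0.16 to 0.05, which left 18 of 22 members lower past 2-fold and put *Kdr* at -0.88 and *Erg* at -0.93.

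The extraembryonic mesoderm list did not move as one. Of 22 members, 17 reached 10 CPM on a plate. Of these, 10 were higher on plate 3 past 2-fold, 3 lower and 4 within. Over all genes 11% were higher and 16.3% lower, so the share of lower members was near that of all genes. The median was 0.72 over all members. The rows of 3 of the 10 lay apart, against 1.98% of all tested genes higher in that way. *Msx2* and *Hand1* had the largest ratios of the list. *Msx2*, a homeobox target of BMP signalling, was at 6.09 CPM on plate 2 and 102 CPM on plate 3, a ratio of 3.86, and was positive in 7.87% and 58.3% of cells. *Msx1* was at 39.7 and 142 CPM and *Tbx3*, a T-box factor, at 44.1 and 157 CPM, with ratios of 1.82 and 1.81. The ligand *Bmp4* was at 36.5 and 133 CPM, a ratio of 1.84, with rows at 5.62 to 60.6 CPM and 60.7 to 232.3 CPM, which lay apart by a narrow margin. *Krt8* and *Krt18*, keratins of simple epithelia, had ratios of 1.497 and 1.36. *Spin2c* was at 29.2 and 218 CPM, a ratio of 2.86.

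Other structural members of the list were lower on plate 3. *Col4a1*, a chain of basement membrane collagen, was at 587 CPM on plate 2 and 155 CPM on plate 3 (-1.92), and *Vim*, the intermediate filament vimentin, at 565 and 242 CPM (-1.22). *Acta2*, smooth muscle actin, had a ratio of -1.27 that rested on row H of plate 2, without which it was 1.41. *Foxf1*, *Ahnak*, *Pmp22* and *Tbx4* stayed within 2-fold, between -0.95 and 0.65. *Twist1*, *Postn*, *Tagln*, *Hoxa11* and *Hoxa13* were under 10 CPM on both plates. *Tdo2*, higher by a ratio of 2.42, was positive in only 7.14% of cells on plate 3.

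**Figure D2:**
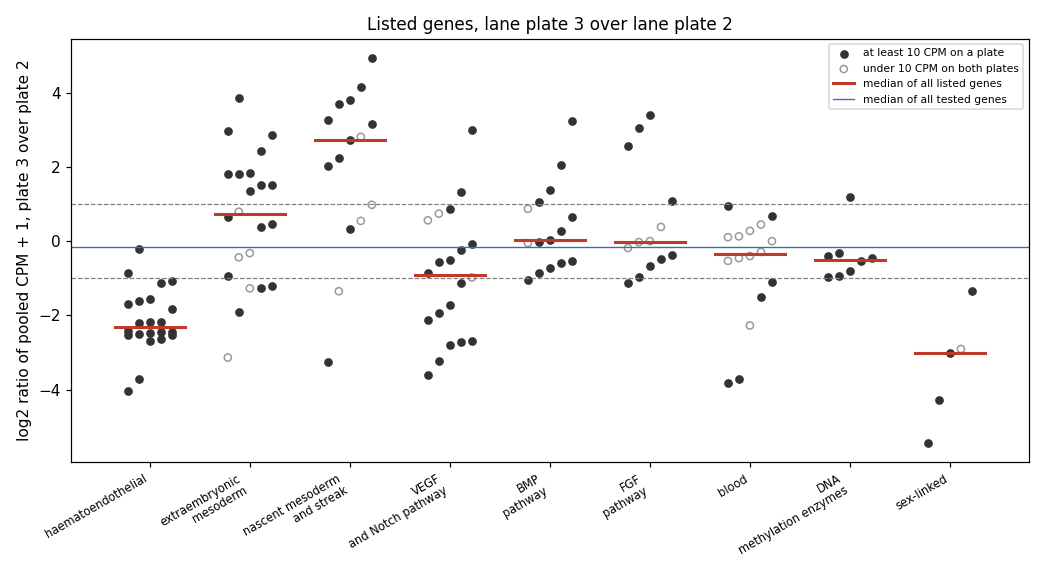
Log2 ratio of pooled CPM, plate 3 over plate 2, for each gene of 9 lists. Filled points reached 10 CPM on a plate, open points did not, red bars are medians of all listed genes, the blue line is the median of all 9759 tested genes (-0.16) and dashed lines mark 2-fold. All 22 haematoendothelial points lie below 0, while the extraembryonic mesoderm points lie on both sides.

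In each cell, the listed markers at 20 CPM or more were counted. On plate 2 a cell held a median of 18 of 22 haematoendothelial markers (1 to 22) and 5 of 22 extraembryonic mesoderm markers (1 to 14). On plate 3 it held 4 (0 to 22) and 9 (1 to 18). The summed level of the extraembryonic mesoderm list did not rise with this number. Its median per cell was 1646 CPM (102 to 10387) on plate 2 and 1553 CPM (96.5 to 6989) on plate 3. For the haematoendothelial list the medians were 8751 CPM (314 to 18537) and 807 CPM (4.20 to 12497). More haematoendothelial than extraembryonic mesoderm markers were found in 76 of 89 cells on plate 2 (85.4%, 76.3 to 91.99%) and in 29 of 84 on plate 3 (34.5%, 24.5 to 45.7%), and 0 cells on either plate held equal numbers. The remainder, 13 cells on plate 2 and 55 on plate 3, held more extraembryonic mesoderm markers. Numbers within 2 of each other, close to the balance, occurred in 7 and 9 cells.

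Few cells held many markers of both sets. At least 11 markers of both lists occurred in 3 cells of plate 2 and 3 cells of plate 3. At least 11 haematoendothelial markers occurred in 72 of 89 cells (80.9%) and 27 of 84 (32.1%). At least 11 extraembryonic mesoderm markers occurred in 7 of 89 cells (7.87%) and 35 of 84 (41.7%), so few cells of plate 2 could hold both. *Kdr* with at most 4 haematoendothelial markers, itself included, occurred in 9 cells on plate 2 (10.1%) and in 42 on plate 3 (50%). Plate 3 was thus made up of a smaller group of cells with many endothelial genes and a larger group with *Kdr* and few others. Over the 8 rows, the median number of haematoendothelial markers ran from 16.5 to 19 on plate 2 and from 3 to 14 on plate 3, without overlap. That of extraembryonic mesoderm markers ran from 4 to 8 and from 4.5 to 12, with overlap. These counts are ranges of marker number and do not name a cell type.

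**Figure D3:**
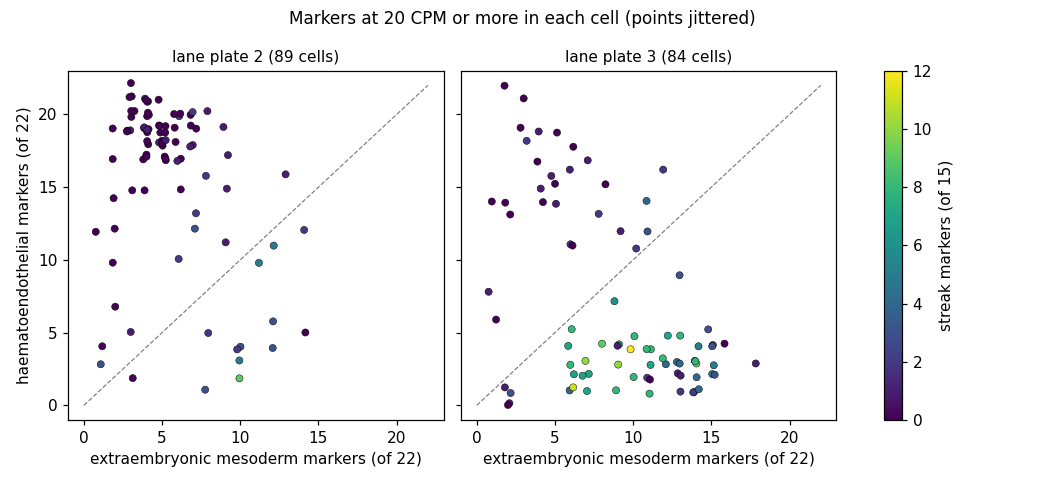
Number of haematoendothelial markers (of 22, vertical) against extraembryonic mesoderm markers (of 22, horizontal) at 20 CPM or more in each cell of plate 2 (89 cells, left) and plate 3 (84 cells, right). Colour gives the number of 15 streak markers, points are jittered, and the dashed line marks equal numbers. On plate 2, 76 cells lie above the line, and on plate 3, 55 lie below it.

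Genes of the primitive streak and nascent mesoderm, the source of both populations, were higher on plate 3. Of 15 listed genes, 11 reached 10 CPM on a plate, 9 of them were higher past 2-fold and 1 lower, against 11% and 16.3% of all genes, with a median of 2.71 over all members. *Mixl1*, a homeobox factor of the streak, was at 6.82 CPM on plate 2 and 237 CPM on plate 3, a ratio of 4.93, and was positive in 5 of 89 cells (5.62%) and 41 of 84 (48.8%). Its rows lay far apart, at 0 to 21.9 CPM and 90.8 to 416 CPM. The ligand *Wnt3* (4.15) and the factors *T* (3.79), *Mesp1* (3.26) and *Eomes* (3.16) of streak and early mesoderm followed by size of ratio. *Fgf8*, a ligand of the streak, had 3 reads in all on plate 2 and was at 12.7 CPM on plate 3. At least 5 streak markers were found in 4 cells of plate 2 (4.49%) and 29 of plate 3 (34.5%). *Mixl1* and *Plvap* were positive together in 2 cells on plate 2 and in 1 on plate 3, and at least 5 streak markers stood with at least 11 haematoendothelial markers in 1 and 0 cells. *Cdx4*, a caudal homeobox factor, was the exception in direction, at 63.8 and 5.85 CPM (-3.24), and *Snai1* stayed within 2-fold. Of 10 epiblast genes, 3 reached 10 CPM and all 3 (*Pou5f1*, *Fgf5* and *Epcam*) were higher on plate 3, though positive in at most 17.9% of cells.

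In the VEGF and Notch pathways, 17 of 20 listed genes reached 10 CPM, 9 were lower on plate 3 past 2-fold and 2 higher, against 16.3% and 11% of all genes, with a median of -0.91 over all members. Receptors differed among themselves. *Notch1* was at 368 CPM on plate 2 and 38.4 CPM on plate 3 (-3.23), with rows at 192 to 512 CPM and 8.10 to 61.3 CPM. *Notch4*, an endothelial Notch receptor, was at 49.9 and 6.30 CPM (-2.80), and *Flt4*, the VEGF-C receptor, at 339 and 50.9 CPM (-2.71). *Notch2* went the other way, at 47.1 and 119 CPM (1.32). Among Notch ligands, *Dll4*, which marks arterial endothelium, had a ratio of -2.69, *Jag2* -3.60 and *Jag1* -2.13, while *Dll3*, a ligand of the streak and presomitic mesoderm, had 2.98. The Notch target *Hey1* had -1.71 and *Hes1* -0.07.

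In the BMP pathway, 13 of 15 genes reached 10 CPM, 4 were higher and 1 lower, against 11% and 16.3% of all genes, with a median of 0.02. The ligands *Bmp5* (5.04 and 55.7 CPM, ratio 3.23) and *Bmp7* (2.04), the receptor *Bmpr1a* (1.38) and the transducer *Smad1* (1.06) were higher, and the target *Id2* was lower (-1.06, and -0.86 with TMM factors). The targets *Id1* and *Id3* were at -0.86 and -0.60, within 2-fold. In the FGF pathway, 9 of 13 genes reached 10 CPM, 4 were higher and 1 lower, against the same 11% and 16.3%, with a median of -0.03. The ligand *Fgf3* was at 16.99 CPM on plate 2 and 148 CPM on plate 3 (3.05), with rows at 0 to 43.7 CPM and 92.2 to 236 CPM. *Fgf10*, another ligand, was at 23.5 and 145 CPM (2.57), with rows at 0 to 77.9 CPM and 79.1 to 199 CPM. The receptor *Fgfr2* had a ratio of 3.39 and *Fgfr3* 1.08, or 0.80 with cells weighted equally. *Dusp6*, a feedback inhibitor of the pathway, was lower, at -1.12 (-0.92 with TMM factors).

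Of the enzymes of DNA methylation, all 8 reached 10 CPM and 1 was higher past 2-fold, *Tet1*, a share near the 11% of all genes. *Tet1* was at 30.8 CPM on plate 2 and 70.7 CPM on plate 3 (1.17, but 0.93 in cells thinned to 100000 reads), with overlapping rows. *Tet2* (47.3 and 24.2 CPM) and *Tet3* (92.8 and 46.6 CPM) had ratios of -0.94 and -0.98. Whether the counted exons are those removed in the knockout is not given in the sources used here, so these levels check no genotype. The other 5 enzymes lay between -0.82 and -0.31.

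Across all genes, 1070 of 9759 (11%) were higher on plate 3 and 1588 (16.3%) were lower past 2-fold. Of these calls 40.3% were higher, and 55% were higher with TMM factors, so the balance of directions depends on the scaling. The 10 genes with the largest ratio that were positive in at least 25% of cells of plate 3 included *Mixl1*, *Wnt3* and *Tdgf1* (Cripto, the Nodal co-receptor, 2.02 and 93.5 CPM, ratio 4.97) of the streak. *Pcdh18*, a protocadherin, was at 6.45 and 131 CPM (4.15) and *Pid1* at 0.09 and 43.5 CPM (5.35). *Fmr1nb*, an X-linked gene otherwise known from testis and tumours, had 0 reads on plate 2 and 38.95 CPM (6654 reads) on plate 3, at least 727-fold higher when plate 2 is set to 3 counts over the pooled plate. It was positive in 39.3% of cells of plate 3. *Ms4a4d* (4.25), *Adra2b* (4.13), *Gm17067* (5.04) and the zinc-finger locus *Zfp125* (4.34), a transcribed pseudogene in the annotation, completed the set. The rows of *Gm17067* and *Wnt3* overlapped and those of the other 8 lay apart.

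Among the 10 genes with the smallest ratio, *Npr3*, the clearance receptor of natriuretic peptides, was at 68.5 CPM on plate 2 and 0.05 CPM on plate 3 (-6.04), and was positive in 33.7% and 0% of cells. *Stab1*, a scavenger receptor of endothelium and macrophages, was at 371 and 13.4 CPM (-4.70). *Slfn9* had a ratio of -4.81 and *Col5a2*, a fibrillar collagen chain, -4.50. *Xist* is described below. The other 5 were *Gm11361* and 4 processed pseudogenes, which are copies of other genes, so that the counts of these pseudogenes are uncertain. *Rps2-ps13* was at 669 CPM on plate 2 and 24.9 CPM on plate 3 and was positive in 95.5% and 8.33% of cells, and *Gm13394* was at 531 and 20.8 CPM, positive in 96.6% and 11.9%. *Gm15772* had a ratio of -4.34, *Gm11361* -4.37 and *Rpl15-ps2* -4.51. The rows of all 10 lowest genes lay apart.

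**Figure D4:**
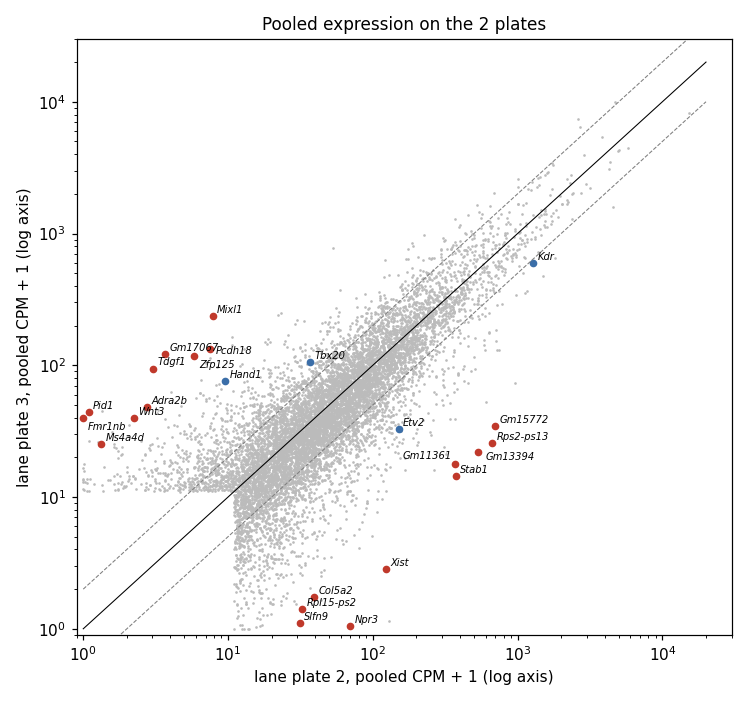
Pooled CPM + 1 on plate 3 against plate 2 (log axes) for the 9759 genes with at least 10 CPM on either plate, in grey. Red points are the 10 genes with the largest and the 10 with the smallest ratio, blue points are *Kdr*, *Etv2*, *Hand1* and *Tbx20*, the solid line is equality and dashed lines are 2-fold. *Mixl1* (6.82 and 237 CPM) stands far above the lines and *Npr3* (68.5 and 0.05 CPM) far below.

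Of 16 blood genes, 6 reached 10 CPM, and 4 of these were lower on plate 3 and 0 higher past 2-fold, against 16.3% lower and 11% higher over all genes. *Itga2b*, which encodes the CD41 used in the stain, was at 136 CPM on plate 2 and 47.1 CPM on plate 3 (-1.51), positive in 56.2% and 20.2% of cells. *Spi1* (15.5 and 0.18 CPM) and *Coro1a* (19.3 and 0.54 CPM), genes of white blood cells, were positive in 0 and 1.19% of cells of plate 3, while *Runx1*, needed for blood stem cell emergence, was at 22.5 and 44.4 CPM (0.95). The embryonic globins *Hba-x*, *Hbb-bh1* and *Hbb-y* stayed under 10 CPM on both plates. The summed blood list ran over cells from 0 to 2635 CPM (median 96.4) on plate 2 and from 0 to 1512 CPM (median 15.1) on plate 3.

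Of 13 endoderm genes, 3 reached 10 CPM, 1 was higher and 2 lower past 2-fold, against 11% and 16.3% of all genes. *Sox17* (115 and 38.3 CPM, -1.56) and *Hhex* (115 and 45.96 CPM, -1.30), which are also expressed in endothelium, were lower on plate 3, and *Trh* was higher, with 3 reads on plate 2 and 11.8 CPM on plate 3. Of the visceral endoderm genes, *Ttr*, *Apoa1*, *Apoa4*, *Apob* and *Afp* were each under 1 CPM on both plates. The sum over all 13 endoderm genes was 234 pooled CPM on plate 2, most of it *Sox17* and *Hhex*. Per cell this sum had medians of 188 CPM (0 to 884) on plate 2 and 18.4 CPM (0 to 1244) on plate 3. Of 12 cardiac and pharyngeal mesoderm genes 5 reached 10 CPM and 1 was lower, a share near the 16.3% of all genes. The lower gene was *Mef2c* at 104 and 47.7 CPM (-1.11, -0.91 with TMM factors). Of 9 extraembryonic ectoderm genes 3 reached 10 CPM, 1 was higher and 1 lower, against the same 11% and 16.3%. *Trap1a* was higher at 0.34 and 43.8 CPM, *Rhox5* was lower at 26 and 3.41 CPM, and *Elf5* had 0 reads on both plates. None of the 7 surface and neural ectoderm genes reached 10 CPM. Of 8 stress genes, 6 reached 10 CPM, 5 were lower on plate 3 past 2-fold (3 with TMM factors) and 0 higher, against 16.3% of all genes lower. The 5 were *Fos*, *Jun*, *Junb*, *Egr1* and *Atf3*, which are immediate early genes. *Junb* was at 87.6 and 21.3 CPM (-1.99) and *Fos* at 58.2 and 17.02 CPM (-1.72). The summed stress list ran from 28.6 to 2483 CPM (median 635) on plate 2 and from 0 to 2039 CPM (median 210.1) on plate 3. With each cell thinned to 100000 reads, 915 genes were higher and 1331 lower on plate 3 past 2-fold, against 1070 and 1588 at full depth. Beyond such counts, the part of these lists, of the depth and of the mitochondrial share in the results above was not tested.

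Restriction to *Kdr*-positive cells kept 167 of the 173 cells, 89 on plate 2 and 78 on plate 3, so that nearly the same cells were compared. The 6 cells left out held at most 11.2 CPM of *Kdr*, 0 to 2 haematoendothelial markers and 2 to 7 extraembryonic mesoderm markers. In the *Kdr*-positive cells, 1070 of 9746 genes (11%) were higher and 1573 (16.1%) lower on plate 3 past 2-fold. *Etv2* had a log2 ratio of -2.11 against -2.19 in all cells, *Hand1* 3.05 against 2.98 and *Tbx20* 1.60 against 1.52. Of the 21 haematoendothelial members other than *Kdr*, 19 were lower and 0 higher, with *Plvap* at -3.63 and *Emcn* at -3.96, and of the extraembryonic mesoderm list 10 were higher and 3 lower. *Mixl1* was at 246 CPM on plate 3 in these cells, a ratio of 4.98. *Kdr* itself chose the cells and is no finding here. *Kdr*-positive cells of plate 3 held a median of 4 haematoendothelial markers (1 to 22), those of plate 2 a median of 18 (1 to 22).

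A narrower comparison, chosen after the data were seen, used the 76 cells of plate 2 and 29 cells of plate 3 that held more haematoendothelial than extraembryonic mesoderm markers. The listed markers chose these cells, so their values are a description. *Kdr* was at a median of 1111 CPM per cell (85.7 to 3580) and 813 CPM (45.6 to 2027). Of 22 haematoendothelial genes, 13 were lower on plate 3 past 2-fold, 9 lay within and 0 were higher, with a median of -1.27, against 20.8% lower and 10.7% higher of 9584 genes and a median of -0.25. *Erg* was at 0.00, *Tal1* at 0.31, *Fli1* at -0.45, *Sox7* at -0.47, *Gata2* at -0.94 and *Lmo2* at 0.96, within 2-fold. *Emcn* (-2.92), *Plvap* (-2.55), *Etv2* (-2.38) and *Sox18* (-1.27) were lower. Markers per cell had a median of 18.5 on plate 2 and 15 on plate 3.

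Genes that did not choose these cells also differed. *Fgf3* was at 13.3 CPM on plate 2 and 164 CPM on plate 3 (3.52), with rows apart, and *Fgf10* had a ratio of 3.17. *Prox1*, a homeobox factor of lymphatic endothelium and liver, was at 4.01 and 62.4 CPM (3.66), and *Rnf17*, a Tudor-domain gene of germ cells, at 4.49 and 72.9 CPM (3.752), with overlapping rows in both. *Notch1* had a ratio of -2.64, and of the VEGF and Notch genes 16 of 20 reached 10 CPM, 10 were lower past 2-fold and 0 higher, against 20.8% and 10.7% of all genes. *H2-K1*, a class I histocompatibility gene, was at 33.3 and 0.29 CPM (-4.74), and *Npr3* at 78.5 and 0.14 CPM (-6.13). Of 15 streak genes, 3 reached 10 CPM, with a median of -0.06 over all members. *T* was at 0.86 and 17.6 CPM (3.32) and *Wnt3* had 1 read on plate 2 and 13.7 CPM on plate 3, *Snai1* was lower at 18.2 and 4.64 CPM (-1.77), and *Mixl1* stayed under 10 CPM on both (0.45 and 1.88 CPM).

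The cells with more extraembryonic mesoderm markers, 13 on plate 2 and 55 on plate 3, were compared in the same way. Few cells stood behind the values of plate 2, and in this comparison 13.7% of 9632 genes were higher and 16.5% lower. *Msx1* (201 and 222 CPM), *Tbx3* (214 and 245 CPM), *Krt8* (517 and 474 CPM) and *Bmp4* (124 and 199 CPM) stayed within 2-fold, and *Hand1* reached 54.8 and 108 CPM (0.96). Of the extraembryonic mesoderm list, which chose these cells, 20 of 22 members reached 10 CPM and more were lower than higher on plate 3 past 2-fold. The 3 higher members were *Tbx20* (1.53), *Msx2* (1.92) and *Ahnak* (1.60). The 6 lower members were *Acta2* (-4.04), *Hoxa11* (-1.99), *Tbx4* (-1.95), *Tdo2* (-1.36), *Twist1* (-1.14) and *Postn*, which was at 59.8 CPM on plate 2 and at 0 reads on plate 3. The rows of all these higher and lower members overlapped, and over all cells the ratio of *Acta2* rested on row H of plate 2. Of 15 streak genes, 13 reached 10 CPM, 8 were higher past 2-fold and 2 lower, and the rows overlapped in all of them. *Mixl1* was at 50.3 and 385 CPM and *T* at 12.2 and 61.9 CPM. *Cdx4* was at 440 CPM on plate 2 and 9.54 CPM on plate 3 (-5.39), positive in 69.2% and 12.7% of cells, and *Cdx1* at 44.3 and 4.49 CPM (-3.05). Of the haematoendothelial genes, whose number also chose these cells, *Etv2* was at 214 and 35.8 CPM (-2.55), *Tal1* at 52.6 and 4.37 CPM (-3.32) and *Plvap* at 49.4 and 1.18 CPM (-4.53). Per cell, *Etv2* had a median of 199.5 CPM on plate 2 and 12.7 CPM on plate 3 here. In cells with more haematoendothelial markers its medians were 1.72 and 5.33 CPM.

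*Xist*, the RNA that silences an X chromosome in female cells, and 4 genes of the Y chromosome (*Ddx3y*, *Eif2s3y*, *Kdm5d* and *Uty*) moved with the plates. *Xist* was at 122 CPM on plate 2 and 1.85 CPM on plate 3, and *Ddx3y* at 78.7 and 3.07 CPM. On plate 2, *Xist* was positive in 35 of 89 cells (39.3%) and the summed Y genes in 47 (52.8%), with 0 cells positive for both, so 82 cells (92.1%, 84.5 to 96.8%) held one or the other. On plate 3 the numbers were 3 of 84 cells (3.57%) and 7 (8.33%), with 0 for both, so 10 cells (11.9%, 5.86 to 20.8%) held one or the other, and 57 cells (67.9%) had no read of any of the 5 genes in spite of the greater depth. Of the 10 positive cells of plate 3, 8 were among the 29 with more haematoendothelial markers (27.6%, 12.7 to 47.2%) and 2 among the 55 with more extraembryonic mesoderm markers (3.64%, 0.443 to 12.5%). On plate 2 the same shares were 71 of 76 (93.4%) and 11 of 13 (84.6%). *Fmr1nb*, at 0 reads on plate 2, was positive on plate 3 in 3 of the 10 cells with *Xist* or Y genes and in 30 of the 74 without. In the same split, *Rps2-ps13* was positive in 3 of the 10 and 4 of the 74, and *Gm13394* in 3 and 7. *Gm11361* was positive in 2 and 5 of these cells, and *Gm15772* in 7 and 40. The part of these differences in the marker results was not tested.

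**Figure D5:**
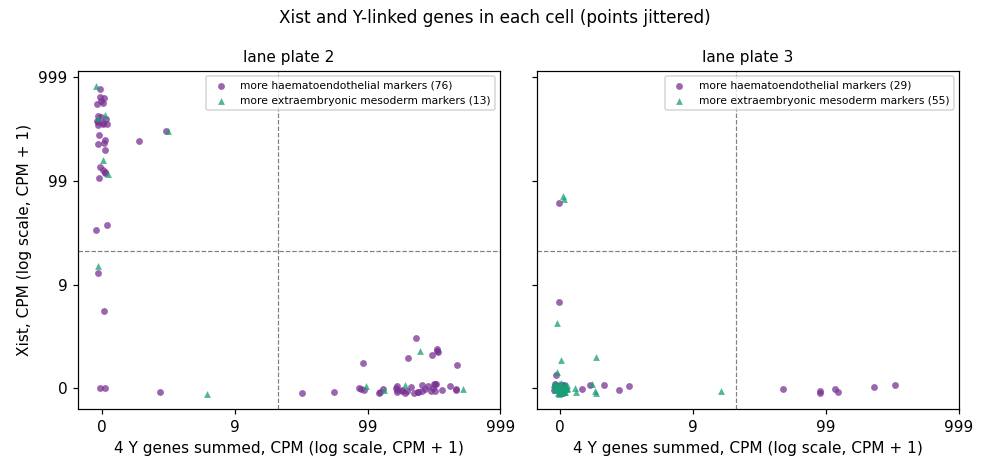
*Xist* (vertical) against 4 Y-linked genes summed (horizontal), CPM per cell on log scales, on plate 2 (left) and plate 3 (right). Marker shape and colour show which marker list was the larger in the cell, points are jittered, and dashed lines mark 20 CPM. On plate 2 the cells form an *Xist* arm (35 cells) and a Y arm (47 cells), while most cells of plate 3 lie near the origin.

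Among the E7.5 plates, lane plates 2 and 3 had the highest *Kdr*. The other 9 plates ranged from 28.7 to 188 pooled CPM and from 15.4% to 42.6% *Kdr*-positive cells, below both. *Hand1* on plate 3 (74.5 CPM) lay inside the range of those 9 plates, 1.98 to 107 CPM, and *Mixl1* (237 CPM) inside their range of 0.04 to 488 CPM. *Tbx20* on plate 3 (104.6 CPM) stood above their range of 9.57 to 58.1 CPM, and on plate 2 (35.9 CPM) it lay inside. *Etv2* stood above their range of 6.23 to 28.7 CPM on plate 2 (149.6 CPM) and just above it on plate 3 (32.1 CPM). *Plvap* on plate 2 (959 CPM) stood above all of those 9 plates, which held 0.76 to 62.1 CPM, and plate 3 (72.4 CPM) stood just above. The highest *Plvap* cell of plate 3, at 1928 CPM in 3307721 reads, carried much of that plate's level. The share of *Plvap*-positive cells on plate 3 (17.9%) was below that of lane plate 1 (32.3%). *Xist* or Y genes were positive in 6.38% of cells of the E7.5 chimera plate, 10.9% of E7.5 embryo 1 and 12.8% of E7.5 embryo 2, beside 11.9% on plate 3, and in 98.9% of cells of lane plate 1, beside 92.1% on plate 2. The other 5 plates lay between 55.4% and 89.01%. *Rps2-ps13* was positive in 0%, 0% and 2.13% of cells on the chimera plate and embryos 1 and 2 and in 94.6% on lane plate 1, and *Fmr1nb* in 68.1%, 70.7%, 68.1% and 0%.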

How the data were processed

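Single E7.5 cells had been sorted into plates and their polyadenylated RNA amplified by Smart-seq2. The labels carry 1 protocol with a GpC methylase step before lysis for all samples. Part of the study's cells were profiled for RNA alone, and whether these plates received the methylase is not given in the sources used here. The authors aligned the reads with HISAT2 2.1.0 to GRCm38 and counted them per gene with featureCounts on Ensembl gene models, and deposited the raw counts of every gene in each cell. The featureCounts version and its settings for strand and multiply mapped reads are not given in the sources used here. All columns of the deposited count table were matched to samples by name, with 0 left without a sample.

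Cells with at least 100000 reads were kept, with no further limit on quality, and no doublet caller was run. Reads were summed per plate and divided by the plate's total (CPM). Ratios are log2 of plate 3 over plate 2 with a pseudocount of 1 CPM, which understates the change of low genes. Genes with at least 10 pooled CPM on either plate were compared. A ratio of at least 1 or at most -1 was called past 2-fold. With 1 sample per group no statistical test was run, and no p-value or standard error is given. Intervals are exact Poisson intervals for CPM and exact Clopper-Pearson intervals for shares, at 95%. The 8 rows of a plate are technical units. Rows were called apart when their ranges did not overlap.

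The 16 gene lists, the marker genes and the members were chosen with earlier results of these data known. Named genes were *Kdr*, *Etv2*, *Hand1*, *Tbx20*, list members past 2-fold or at high level, and the 10 genes with the largest and the 10 with the smallest ratio among those positive in at least 25% of cells of the higher plate with the same sign in the mean over cells. Gene symbols came from a table of gene names (55141 of 55487 identifiers matched), positions and overlaps from GENCODE M21 on GRCm38 (55227 matched) and promoter sequences from RefSeq. Python 3.11.15, scipy 1.17.1, pandas 2.3.3, and, for other scaling factors only, edgeR 4.0.16 and DESeq2 1.42.0 were used. Calculations were tested on simulated data. Alternatives were the depth, quality and positive limits, thinning, weighting of cells, scaling, pseudocount, expression filter and leaving out each row.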

Additional observations from a re-analysis of the deposited data

Results flagged for a closer look

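*Hey1*, a target of Notch signalling, was lower on plate 3 in cells with more haematoendothelial markers, at 107 CPM on plate 2 and 40.9 CPM on plate 3 (log2 ratio -1.36). In cells with more extraembryonic mesoderm markers it was higher on plate 3, at 2.94 and 19.7 CPM (2.39). It was singled out because the ratios passed 2-fold in opposite directions, with at least 25% of cells of the higher plate positive in both sets. Members of the haematoendothelial and extraembryonic mesoderm lists were not considered. *Spry1* also passed 2-fold in opposite directions (1.74 and -2.18) but did not reach that share of cells. The plate 2 level of *Hey1* in the second set rests on 21 reads in 13 cells. The cell sets were chosen after the data were seen, and the difference between the ratios was not tested.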

How the results depend on the processing

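No paired analysis was possible because each plate is 1 sample and the plates share no replicate number. The share of cells with more haematoendothelial markers stayed between 83.1% and 88.3% on plate 2 and between 29.7% and 36.1% on plate 3 when each row was left out in turn. With a positive level of 5 CPM the *Etv2* share was 52.8% on plate 2 and 59.5% on plate 3, which turned the order of the plates, and with 50 CPM it was 39.3% and 21.4%, the *Hand1* share on plate 2 was 5.62% and the *Tbx20* share on plate 3 was 41.7%. The numbers of genes past 2-fold followed the pseudocount and the filter. With a pseudocount of 10 CPM, 647 genes were higher and 914 lower (653 and 906 in *Kdr*-positive cells). With no filter beyond 1 read they were 2046 and 2947 (2049 and 2948), and at 50 CPM or more 516 and 644 (525 and 629), where fewer genes were compared. Leaving out a row gave 1019 to 1126 higher and 1546 to 1706 lower.

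Over the named genes past 2-fold in all cells (126 of 231), 1305 of 1386 values under other settings stayed past 2-fold in the same direction, 79 fell within it and 2 reversed. Leaving out a row gave 1957, 56 and 3 of 2016. In *Kdr*-positive cells (122 of 230 genes) the numbers were 1497, 88 and 1 of 1586, and 1869, 79 and 4 of 1952. *Xlr3a* reversed when cells were thinned (-0.44, and -0.36 in *Kdr*-positive cells), with cells weighted equally (-0.019) and without row F of plate 3 (-0.62 and -0.60, against a highest value of 1.59 and 1.66 over the rows left out). *Pf4* reversed without row F of plate 2 (0.23 and 0.30, lowest -2.97 and -2.93), *Acta2* without row H of plate 2 (1.41 and 1.21, lowest -1.61 and -1.98), and *Ascl2* in *Kdr*-positive cells without row A of plate 2 (0.012, lowest -1.63). With DESeq2 size factors 55.2% of calls were higher, and in *Kdr*-positive cells 55.7% with TMM and 55.9% with DESeq2 factors against 40.5% as reported. The cause of these changes was not tested. Depth limits the values of low genes most on plate 2, where 3 reads amount to 0.05 CPM.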

Other observations

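Of 19 listed genes of the cell cycle, all reached 10 CPM, 2 were higher and 1 lower past 2-fold, against 11% and 16.3% of all genes, with a median log2 ratio of -0.19 (0.01 with TMM factors) beside -0.16 over all genes (0.05 with TMM factors). These were *Pcna*, the sliding clamp of DNA replication, at 235 CPM on plate 2 and 493 CPM on plate 3 (1.06), with rows apart at 178 to 289 CPM and 339 to 699 CPM, *Bub1*, a kinase of the spindle checkpoint, at 118 and 251 CPM (1.09), and *Aurka*, a mitotic kinase, at 137 and 55.5 CPM (-1.29). *Top2a*, which untangles chromosomes, was at 389 and 744 CPM (0.93, within 2-fold), and overlaps small RNA genes on both strands. With TMM factors 4 genes instead of 2 were higher past 2-fold.

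Genes of the X chromosome stood higher on plate 3 than those of the autosomes. Of 357 X-linked genes compared, 87 (24.4%) were higher and 40 (11.2%) lower past 2-fold, with a median log2 ratio of 0.36. Medians of the autosomes ran from -0.30 on chromosome 7 to 0.06 on chromosome 13. On chromosome 13, 19.9% of 381 genes were higher, the largest share among autosomes. These counts describe 1 plate against 1 plate and carry no test.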
